A study of Oryza sativa with 9 samples.

Results

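Phenylalanine ammonia lyase (PAL) removes ammonia from phenylalanine to give cinnamic acid, the step by which carbon leaves protein metabolism for the phenylpropanoid pathway. Cinnamate 4-hydroxylase (C4H) and 4-coumarate:CoA ligase (4CL) then lead to lignin, flavonoids and other phenolics, and salicylic acid can be made from the same cinnamate. Plants carry several PAL genes, known to respond to cold, wounding and pathogens, and some grass enzymes also accept tyrosine.

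The 9 PAL loci of rice described here were taken by locus identifier from a count table of 55801 loci. They are LOC_Os02g41630, LOC_Os02g41650, LOC_Os02g41670 and LOC_Os02g41680, a run of near-consecutive identifiers on chromosome 2; LOC_Os04g43760 and LOC_Os04g43800 on chromosome 4; LOC_Os05g35290 on chromosome 5; LOC_Os11g48110 on chromosome 11; and LOC_Os12g33610 on chromosome 12. A reference gene table (assembly ASM3414082v1) holds 2 genes on chromosome 2 with a PAL name near the position that the chromosome 2 identifiers imply. Which of the 4 chromosome 2 loci these are was not resolved, and family membership of the remaining loci rests on the identifiers alone.

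The study sequenced RNA from shoots of ZH11 rice seedlings with 4 leaves, after 2 d at 4 °C, in 3 groups of 3 libraries: wild type (WT), an ossro1c knockout and an osdreb2b knockout. It asked which genes depend on the OsSRO1c-OsDREB2B complex in the cold, taking genes lower in both mutants as candidates. All groups were chilled, so the values compare genotypes in the cold and do not measure a response to cold. The labels do not say how many lines or plants stand behind each group, so a p-value here covers no more than the spread between the libraries of a group, which may be technical.

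Library totals ran from 58398026 to 69336224 counts. Levels are given as CPM, the count of a locus per unit of library size after scaling by the trimmed mean of M values (TMM), and a gene was called changed at an adjusted p under 0.05 (edgeR quasi-likelihood test, Benjamini-Hochberg adjustment over 26112 tested loci). The locus listed as OsSRO1c (LOC_Os03g12820) stood at 2024 to 2078 CPM in the WT libraries, 379 to 451 CPM in those labelled ossro1c and 129 to 138 CPM in those labelled osdreb2b. OsDREB2B (LOC_Os05g27930) stood at 166 to 173, 60.5 to 79.8 and 299 to 319 CPM. Each targeted transcript was thus lower under the label of the other mutant than under its own, and OsDREB2B was 1.84-fold above WT in the libraries labelled as its own knockout (log2 0.88, adjusted p = 1.7e-06). Whether the mutant labels were exchanged cannot be told from these values. If they were, every ossro1c result below would belong to osdreb2b and the reverse, so each direction is given for the libraries carrying the label. Replicate 3 of ossro1c stood apart from the other 2 of its group. The variance of its counts against theirs, pooled over loci, was about 83 times that of sampling noise (chi-square per degree of freedom). In the other pairs within groups this ratio was 8.54 to 14.4. The photosynthetic genes CAB2R and RBCS, markers of leaf mesophyll, were present in every library. Of the root markers, Lsi2 was at 0 in all libraries and Lsi1 was present in all. Of the meristem and cell division markers, OSH1 was at 0 in all libraries and CDKB2;1 (LOC_Os08g40170) was present in all.

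Of the 9 loci, 8 had counts and were tested, each with at least 347 counts in every library, so none of the 8 passed the filter on low counts through 1 group alone. LOC_Os11g48110 had 0 counts in all 9 libraries. With a limit of 3 counts this allows up to 0.0390 to 0.0528 CPM per library, a limit that covers counting error only. Lengths of the loci were not used here, so levels are compared between genotypes for 1 locus at a time and not between loci. The count is also uncertain where reads of similar family members could be split or shared between them, since the counting rule and its use of strand are not given.

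The family as a whole took more of the library under the ossro1c label. Summed over the 9 loci, PAL stood at 1620, 1610 and 1605 CPM in WT replicates 1 to 3. Under the ossro1c label the sum was 2826, 2852 and 3372 CPM, and under the osdreb2b label it was 1869, 1732 and 1877 CPM. The 3 ranges did not overlap. As a share of all counts, the family held 0.145% ± 0.000503 in WT (SD, n = 3), 0.338% ± 0.0269 in ossro1c libraries and 0.181% ± 0.00704 in osdreb2b libraries.

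**Figure D1:**
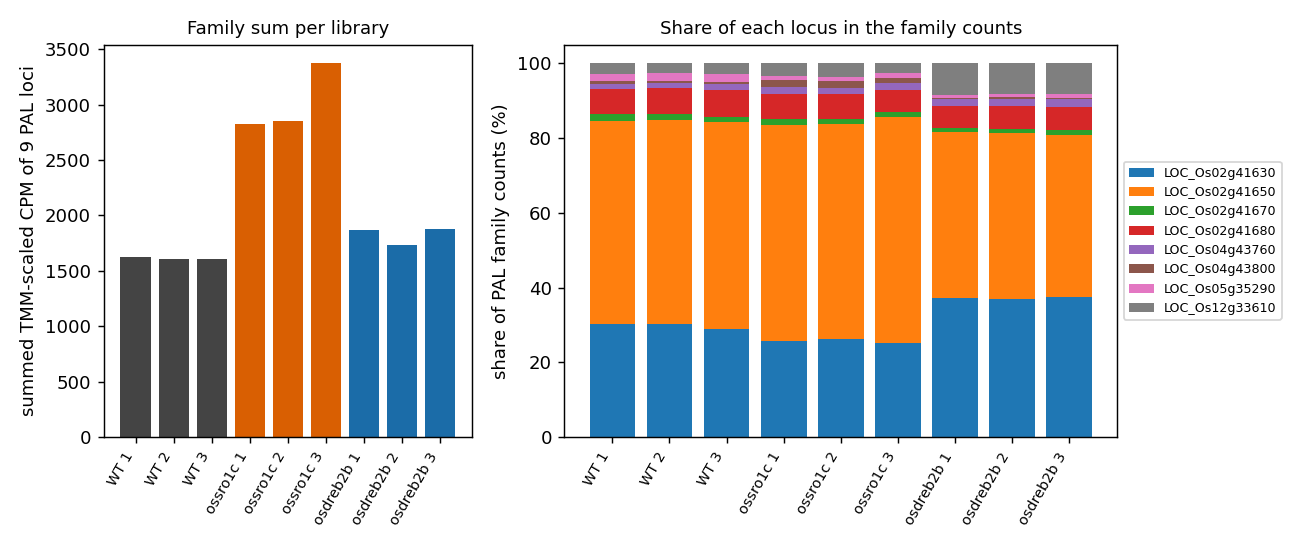
Left, the summed TMM-scaled CPM of the 9 PAL loci in each library, with WT in grey, ossro1c in orange and osdreb2b in blue; right, the share of each locus in the PAL counts of the same library, in percent and not corrected for length. The ossro1c libraries stand highest, between 2826 and 3372 CPM, and the osdreb2b libraries have a larger grey share for LOC_Os12g33610, 8.18% to 8.37% against 2.64% to 2.86% in WT.

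Under the ossro1c label 7 of the 8 tested PAL loci were higher than in WT and 0 were lower; the eighth, LOC_Os05g35290, did not pass the threshold. Over all loci tested, 29.4% were called higher and 31.4% lower in this comparison. The median log2 fold change of the 8 was 0.89, against -0.0014 over all tested loci. At an unadjusted p under 0.05 the count of lower members was 0 as well, and it was 0 with DESeq2. No member was among the genes lower in both mutants that the study sought. Leaving out replicate 3 of ossro1c, the library that stood apart, gave 7 higher and 0 lower again, with log2 changes of 0.62 to 2.15 for those 7 loci.

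Under the osdreb2b label 3 loci were higher, 3 were lower and 2 did not pass. Both counts were near the background of 29.9% called higher and 29.6% called lower, so they set the family apart in neither direction. The members' median change was -0.07 against 0.03 over all tested loci. Between the mutant labels, 7 of the 8 were lower under osdreb2b than under ossro1c and 1, LOC_Os12g33610, was higher, where 23.6% of all tested loci were called lower and 22.9% higher. The comparisons with WT share the WT libraries, and each is given by its own values.

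**Figure D2:**
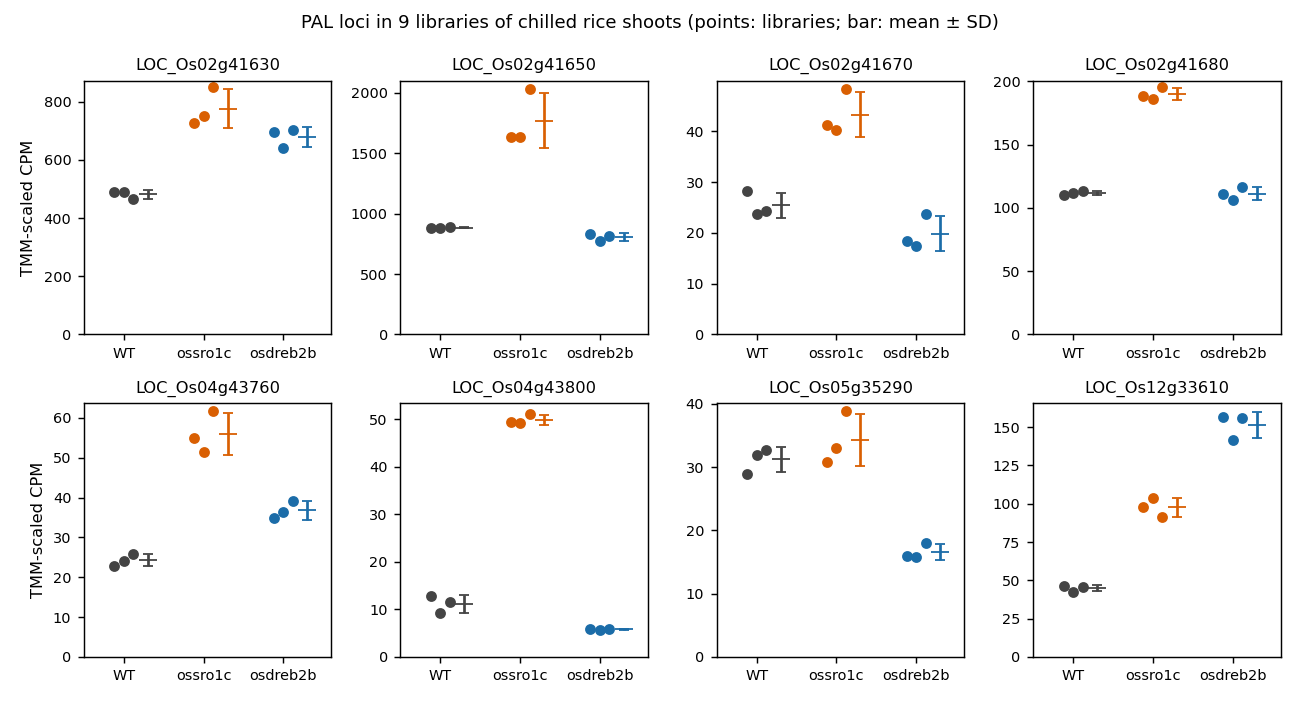
TMM-scaled CPM of the 8 PAL loci with counts, 1 panel per locus, for WT, ossro1c and osdreb2b; points are the 3 libraries of a group and the bar beside them is the mean ± SD. LOC_Os04g43800 is highest in the ossro1c libraries, at 49.3 to 51.1 CPM, whereas LOC_Os12g33610 is highest under osdreb2b, at 142 to 156 CPM.

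The 4 loci on chromosome 2 held 92.8% to 93.3% of the PAL counts in WT, 91.7% to 92.8% in ossro1c libraries and 88.3% to 88.6% in osdreb2b libraries. LOC_Os02g41650 alone gave 54.4% to 55.3% of the family's counts in WT, counted without regard to length. It stood at 881, 879 and 887 CPM in WT, and the ossro1c libraries had 1636, 1638 and 2034 CPM. These ranges were far apart, with replicate 3 of ossro1c the highest of all 9 libraries. The rise was 2.0-fold (log2 1.0, SE 0.08, adjusted p = 1.8e-07, edgeR), and the log2 change was 0.89 without that library. Under the osdreb2b label the level was 831, 769.7 and 816 CPM. All 3 libraries lay below WT, but the log2 change of -0.13 (95% interval -0.31 to 0.05, adjusted p = 0.19) did not pass. A fit on the 6 libraries alone did pass it (adjusted p = 0.0047), as did leaving out replicate 3 of ossro1c (adjusted p = 0.0021). Raw library totals turned it to 0.01 (adjusted p = 0.92; 0.0021 to 0.92 over the 18 settings). The share of this locus in the PAL counts fell to 43.5% to 44.4% under the osdreb2b label, outside the WT range.

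LOC_Os02g41630 was the chromosome 2 locus that was higher under both mutant labels. Its libraries stood at 489.9, 488 and 465 CPM in WT, 727, 750.0 and 851 CPM under ossro1c, and 696, 639.6 and 701 CPM under osdreb2b. Every mutant library lay above every WT library. It rose 1.61-fold under the ossro1c label (log2 0.69, SE 0.07, adjusted p = 2.4e-06) and 1.41-fold under the osdreb2b label (log2 0.50, SE 0.07, adjusted p = 5.4e-05). The mutant labels differed by -0.19 (SE 0.07, adjusted p = 0.047), a call that was lost in 10 of 18 alternative settings, including the removal of any WT library (adjusted p = 0.00038 to 0.22 over all 18). It was -0.12 without replicate 3 of ossro1c. Its place in the family differed by genotype, with 29.0% to 30.3% of PAL counts in WT, 25.2% to 26.3% under ossro1c and 36.9% to 37.3% under osdreb2b.

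The other 2 chromosome 2 loci were higher under ossro1c and not under osdreb2b. LOC_Os02g41680 stood at 110.4, 112 and 113 CPM in WT, 188, 186 and 196 CPM under ossro1c, and 111, 106 and 117 CPM under osdreb2b. The ossro1c libraries were all above the others, while the WT and osdreb2b libraries overlapped. Its rise under ossro1c was 1.70-fold (log2 0.76, SE 0.07, adjusted p = 3.3e-07). The change under osdreb2b was -0.01 (95% interval -0.15 to 0.14, adjusted p = 0.94), which limits a difference in either direction to small sizes on the TMM scale; its sign varied with the scaling, at 0.11 by the upper quartile and 0.13 by raw totals. LOC_Os02g41670, with fewer counts, stood at 28.2, 23.6 and 24.4 CPM in WT and at 41.3, 40.3 and 48.3 CPM under ossro1c, a 1.71-fold rise (log2 0.77, SE 0.13, adjusted p = 0.00012). Under osdreb2b it stood at 18.4, 17.5 and 23.8 CPM, overlapping WT. That fall, by 0.35 on the log2 scale (SE 0.13, adjusted p = 0.028), was lost without WT replicate 1 (adjusted p = 0.13), without osdreb2b replicate 1 or 2 (adjusted p = 0.11 and 0.13), and with scaling by the upper quartile or by raw totals (adjusted p = 0.12 and 0.15; 0.0039 to 0.15 over the 18 settings).

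Both loci of the pair on chromosome 4 rose under ossro1c, as most members did, but by unlike amounts. Under osdreb2b they moved in opposite directions. LOC_Os04g43800, which has also been called PAL5, had the greatest change of the 8 between the groups. It stood at 12.8, 9.13 and 11.5 CPM in WT, at 49.4, 49.3 and 51.1 CPM under ossro1c, and at 5.80, 5.69 and 5.91 CPM under osdreb2b. No 2 groups overlapped. From WT it rose 4.48-fold under ossro1c (log2 2.16, SE 0.12, adjusted p = 2.6e-09) and fell by 0.94 on the log2 scale under osdreb2b (SE 0.12, adjusted p = 1.1e-05). It was 8.61-fold higher under ossro1c than under osdreb2b (log2 -3.11 for osdreb2b against ossro1c, SE 0.12, adjusted p = 2.4e-10).

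LOC_Os04g43760, its neighbour on chromosome 4, was higher than WT under both labels. Its libraries stood at 22.9, 24.1 and 25.8 CPM in WT, 54.97, 51.4 and 61.7 CPM under ossro1c, and 34.8, 36.3 and 39.3 CPM under osdreb2b. The order ossro1c over osdreb2b over WT held in every pair of libraries. It rose 2.31-fold under ossro1c (log2 1.21, SE 0.10, adjusted p = 1.0e-07) and 1.52-fold under osdreb2b (log2 0.60, SE 0.09, adjusted p = 8.6e-05), and the mutant labels differed by -0.61 (SE 0.09, adjusted p = 0.00011).

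LOC_Os12g33610 was the locus highest under the osdreb2b label. It stood at 46.4, 42.5 and 45.6 CPM in WT, at 97.7, 103.8 and 91.4 CPM under ossro1c, and at 156, 142 and 156 CPM under osdreb2b. The groups were fully separate. It rose 2.18-fold under ossro1c (log2 1.12, SE 0.08, adjusted p = 3.3e-08) and 3.38-fold under osdreb2b (log2 1.76, SE 0.08, adjusted p = 4.1e-10), and stood 1.55-fold higher under osdreb2b than under ossro1c (log2 0.63, SE 0.08, adjusted p = 1.5e-05). In this locus replicate 3 of ossro1c was the lowest of its group, where in the other 7 it was the highest.

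LOC_Os05g35290 was lower under osdreb2b and showed no call under ossro1c. It stood at 29.0, 32.0 and 32.7 CPM in WT, 30.8, 33.1 and 38.9 CPM under ossro1c, and 15.9, 15.8 and 17.97 CPM under osdreb2b. WT and ossro1c overlapped, and every osdreb2b library lay below both. It fell by 0.91 on the log2 scale under osdreb2b (SE 0.11, adjusted p = 5.4e-06), to 53.1% of WT. The change under ossro1c was 0.13 (95% interval -0.09 to 0.36, adjusted p = 0.29), which passed with scaling by the upper quartile (0.29, adjusted p = 0.028) or by raw totals (0.45, adjusted p = 0.0014; 0.0014 to 0.77 over the 18 settings).

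The ranges of 2 groups did not overlap for 7 of the 8 loci between ossro1c and WT, 6 between osdreb2b and WT, and 8 between the mutant labels, against 67.2%, 70.0% and 54.9% of all tested loci. An exact two-sided permutation of their log2 CPM values gives p = 0.1, which is as low as groups of 3 can reach.

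**Figure D3:**
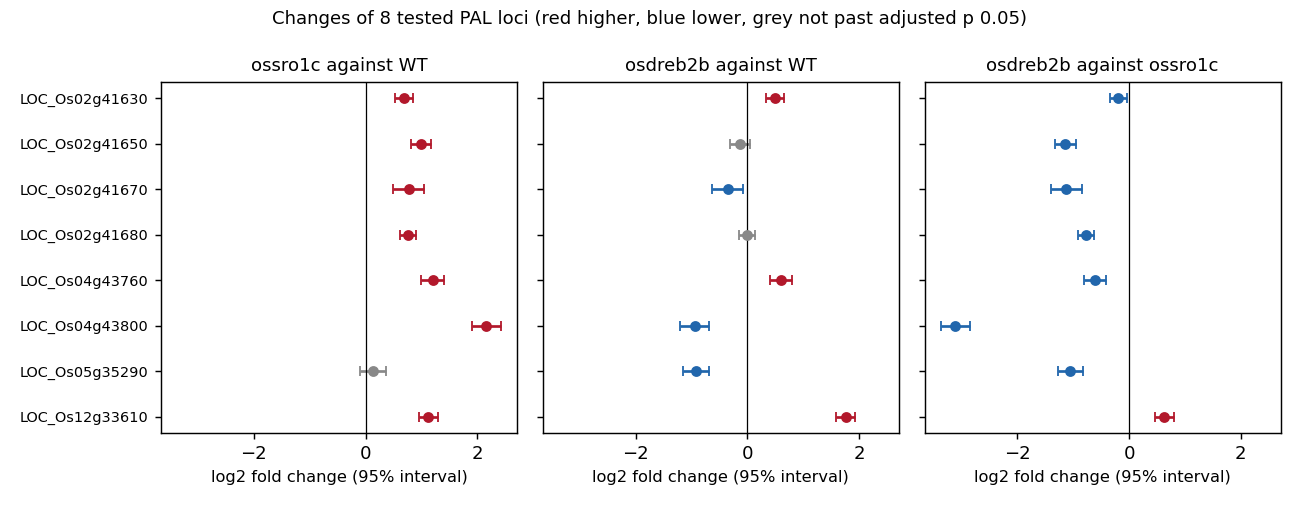
Log2 fold changes of the 8 tested PAL loci with 95% intervals from the edgeR fit, for ossro1c against WT, osdreb2b against WT and osdreb2b against ossro1c; red points were called higher, blue points lower, and grey points did not pass an adjusted p of 0.05. Red points fill 7 of 8 positions in the first panel, 3 in the second and 1, LOC_Os12g33610, in the third.

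The members differed in how closely their profiles over the 9 libraries resembled each other. Likeness was measured as the root mean square (RMS) distance between log2 CPM profiles, each centred on its own mean. The closest pairs lay within the chromosome 2 block. LOC_Os02g41650 was 0.164 from LOC_Os02g41670 and 0.164 from LOC_Os02g41680, with 108 and 109 of the tested loci nearer to it. LOC_Os02g41630, in the same block, was 0.239 from LOC_Os04g43760 of chromosome 4, with 1464 tested loci nearer. Within the block it was about as near to LOC_Os02g41680, at 0.263, with 1912 nearer. It was farther from LOC_Os02g41650, at 0.392, and LOC_Os02g41670, at 0.440, with 5231 and 6622 nearer. The chromosome 4 pair was 1.04 apart, and the widest distance, 1.58, separated LOC_Os04g43800 from LOC_Os12g33610. These distances describe 9 libraries that fall into 3 groups, so they mostly compare 3 group means.

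For each of the 3 members with the most counts, the 2 nearest of the 48 tested pathway loci were picked. Some nearness follows from that choice, and a link between the loci was not tested. For LOC_Os02g41650 the nearest of the listed pathway loci were LOC_Os08g38900, listed as a caffeoyl-CoA O-methyltransferase, at 0.148, and CAD2 (LOC_Os02g09490), a cinnamyl alcohol dehydrogenase gene, at 0.196. Among all tested loci, 66 and 203 were nearer. For LOC_Os02g41630 they were HCT1 (LOC_Os04g42250), a hydroxycinnamoyl transferase gene, at 0.0796, with 20 loci nearer, and LOC_Os10g16974, listed as a flavonoid hydroxylase, at 0.103, with 55 nearer. For LOC_Os02g41680 they were LOC_Os08g38900 at 0.159 and the caffeate O-methyltransferase gene (LOC_Os08g06100) at 0.196, with 200 and 424 nearer.

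Loci beside the members were read in 2 windows chosen after the data were seen. From LOC_Os02g41580 to LOC_Os02g41730 there were 11 loci that are not members, 4 of them tested. LOC_Os02g41640, which lies between LOC_Os02g41630 and LOC_Os02g41650 by its identifier, had 0 counts in WT, 54 under ossro1c and 0 under osdreb2b, and was not tested. Of the 4 tested, 2 were higher under ossro1c and the same 2 under osdreb2b, against 29.4% and 29.9% of all tested loci in each comparison alone. The share of all tested loci higher under both labels was not counted. LOC_Os02g41580 rose by 1.22 under ossro1c and 0.89 under osdreb2b, and LOC_Os02g41590 by 1.08 and 0.75. The others, LOC_Os02g41610 and LOC_Os02g41710 on either side of the PAL block, were not called under ossro1c (log2 -0.67, adjusted p = 0.36, and log2 -0.14, adjusted p = 0.38). LOC_Os02g41610 was near the floor, with means of 0.685 CPM in WT, 0.431 under ossro1c and 0.356 under osdreb2b. LOC_Os02g41710 fell by 0.81 under osdreb2b. LOC_Os04g43770 of chromosome 4, between both members by identifier, was not called under ossro1c (log2 0.56, adjusted p = 0.14) and rose by 0.85 under osdreb2b (adjusted p = 0.032). On chromosome 4, 3 of the 6 tested loci were higher and 1 lower under ossro1c, and 5 were higher and 0 lower under osdreb2b, against 29.4%, 31.4%, 29.9% and 29.6% over all tested loci.

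The same fit covered 50 listed loci of the pathway around PAL, 48 of them tested. The lists come from general knowledge of the rice genome, and 15 of the 50 names were found in the reference table near the expected position. Under the ossro1c label 21 of the 48 were higher and 16 lower (median log2 -0.01), under osdreb2b 16 were higher and 19 lower (median -0.06), and between the mutant labels 9 were higher and 26 lower (median -0.51). The balance in the first of these rested on 1 library: without replicate 3 of ossro1c, 18 were higher and 20 lower. Over all tested loci, 29.4% were higher and 31.4% lower under ossro1c, 29.9% and 29.6% under osdreb2b, and 22.9% and 23.6% between the mutant labels. The counts of the whole list against WT, and those of single lists below, are to be read against these shares; the 16 lower under ossro1c and the 16 higher under osdreb2b were near them. Among the 15 with a found name, 7 were higher and 2 lower under ossro1c, and 6 were higher and 5 lower under osdreb2b.

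Upstream of PAL, the loci listed for the shikimate route and phenylalanine supply were mostly lower under both mutant labels. Under the ossro1c label 6 of 8 were lower and 1 higher (median -0.92), and under osdreb2b 7 were lower and 1 higher (median -1.15). DAHPS1 (LOC_Os03g27230), for the entry enzyme of the shikimate route, stood at 544, 527 and 545 CPM in WT, 82.2, 81.7 and 101 CPM under ossro1c, and 71.4, 71.3 and 74.7 CPM under osdreb2b. Both mutant groups lay far below WT. It fell by 2.61 under ossro1c (SE 0.09, adjusted p = 3.7e-11), and its log2 change under osdreb2b was -2.89 (SE 0.09, adjusted p = 1.2e-11). DAHPS2 (LOC_Os07g42960) fell too, with log2 changes of -0.97 and -0.91. Those of the listed loci LOC_Os08g37790 and LOC_Os04g33390 were -1.59 and -1.24 and, in the latter, -1.16 and -2.62, all past the threshold. The 1 higher was LOC_Os10g41480, named here after its values were seen, which stayed below 1 CPM in every library.

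Directly after PAL, the 2 steps differed in direction under the ossro1c label. Of the 4 loci listed for C4H, which oxidises cinnamate, 3 were lower under ossro1c and the same 3 under osdreb2b. Over all tested loci 31.4% and 29.6% were lower in each comparison alone, and the share lower in both was not counted. The names of the C4H loci were not found in the reference table. LOC_Os05g25640 stood at 339, 342 and 323 CPM in WT, 188, 182 and 228 CPM under ossro1c, and 62.4, 66.6 and 68.2 CPM under osdreb2b. The groups were fully separate, with a log2 change of -0.75 under ossro1c (SE 0.09, adjusted p = 5.0e-06) and of -2.35 under osdreb2b (SE 0.09, adjusted p = 8.5e-11). LOC_Os02g26770 changed by -2.39 under ossro1c and -4.52 under osdreb2b, and LOC_Os02g26810 by -2.21 and -5.16. Their means under osdreb2b were 0.732 and 0.570 CPM, from 16.9 and 20.6 CPM in WT. The other listed locus, LOC_Os01g60450, was at 0 to 0.317 CPM in WT and 0.949 to 1.53 CPM under ossro1c, where it was called higher (adjusted p = 0.0055).

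The 4CL genes, whose enzymes activate the product of C4H, were higher under ossro1c in 3 of 5 cases and lower in 0. At an unadjusted p under 0.05 4CL1 would count as lower and 4CL5 as higher. 4CL2 (LOC_Os02g46970) rose 2.30-fold, from 5.35, 5.17 and 4.10 CPM to 12.4, 9.92 and 11.4 CPM (adjusted p = 2.1e-05). 4CL4 (LOC_Os06g44620) rose by 0.64 under ossro1c and by 0.50 under osdreb2b, and 4CL3 (LOC_Os02g08100), a form linked to lignin, rose by 0.27 under ossro1c. 4CL5 (LOC_Os08g34790) stood at 19.5, 21.6 and 20.4 CPM in WT and 2.90, 3.89 and 4.17 CPM under osdreb2b, a log2 change of -2.49 (SE 0.18, adjusted p = 3.6e-08). Under ossro1c it was at 22.7, 23.2 and 34.2 CPM (log2 0.38, adjusted p = 0.059), so that replicate 3 alone stood well above WT. Under osdreb2b 4CL4 was higher and 4CL5 lower, while 4CL1, 4CL2 and 4CL3 were not called (adjusted p = 0.56, 0.95 and 0.93, edgeR).

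In the lignin list, 8 of 15 tested loci were higher and 4 lower under ossro1c (median 0.54), and 6 were higher and 4 lower under osdreb2b (median 0.37). HCT1 rose by 0.54 and 0.40, and the caffeate O-methyltransferase gene by 0.83 and 0.37. CAD2, of the last reduction to monolignols, rose by 0.70 under ossro1c (adjusted p = 0.00099) and fell by 0.48 under osdreb2b (adjusted p = 0.012). CCR1 (LOC_Os02g56460), a cinnamoyl-CoA reductase gene, rose by 2.05 under osdreb2b, from 0.927 to 1.66 CPM in WT to 4.90 to 6.57 CPM, and was not called under ossro1c (adjusted p = 0.073). Among loci without a found name, LOC_Os09g25150 rose by 1.65 and 1.10, and LOC_Os08g34280 changed by -1.0 and -1.67.

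In the flavonoid list, 4 of 8 tested loci were higher under ossro1c and 0 lower, with 0 lower at an unadjusted p under 0.05 too (median 0.95). Under osdreb2b 4 were higher and 2 lower (median 0.19). CHS1 (LOC_Os11g32650), the chalcone synthase gene at the entry of the branch, stood at 99.9, 107 and 95.4 CPM in WT, 317, 318 and 369 CPM under ossro1c, and 205, 195 and 214 CPM under osdreb2b. The groups did not overlap, and it rose by 1.73 (SE 0.08, adjusted p = 6.5e-10) and by 1.02 (SE 0.08, adjusted p = 9.4e-08). CHI (LOC_Os03g60509), for chalcone isomerase, was not called under ossro1c (adjusted p = 0.93) and rose by 0.73 under osdreb2b. LOC_Os06g01250 rose by 1.77 and 1.42. Among the 8 loci listed as regulators, 4 were higher and 3 lower under ossro1c, and 4 were higher and 2 lower under osdreb2b; LOC_Os06g04090 rose by 3.22 and 3.51, and LOC_Os10g33810 fell by 1.67 under ossro1c and rose by 2.2 under osdreb2b.

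**Figure D4:**
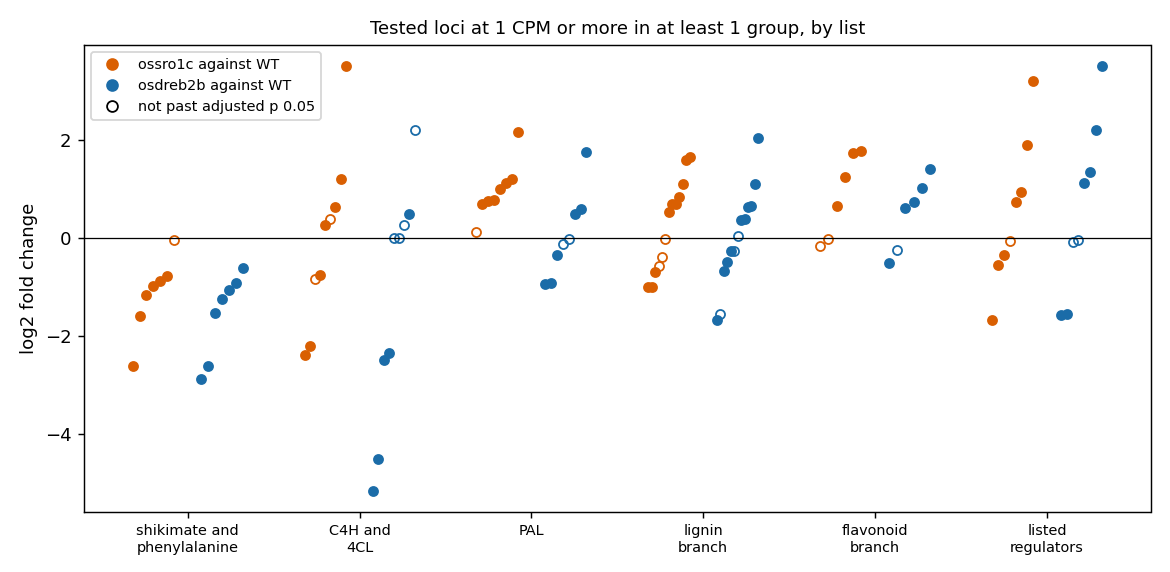
Log2 fold changes against WT of the tested PAL loci and listed pathway loci that reached a mean of 1 CPM in at least 1 group, with ossro1c in orange, osdreb2b in blue and open points for an adjusted p of 0.05 or more; each point is 1 locus, ordered by value within its list. The shikimate and phenylalanine points lie at or below 0 under both labels, while the filled ossro1c points of PAL lie above 0, from 0.69 to 2.16.

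Marker loci of cell types present in shoots, or of tissue carried along with them, moved between the groups as well, and their part in the PAL values was not tested. Whole shoots were sequenced, so a change in the cells that make a transcript and a change of transcript within each cell cannot be told apart. The 3 loci listed for secondary wall cellulose synthases, marking the vascular and fibre cells that lignify, summed to 317 to 320.1 CPM in WT, 292 to 342 CPM under ossro1c and 199 to 213 CPM under osdreb2b. Of the 3, 1 was higher under ossro1c and 3 were lower under osdreb2b, with log2 changes of -0.51 for CesA4 (LOC_Os01g54620) and -0.53 for CesA7 (LOC_Os10g32980). Among all tested loci, 29.4% were called higher and 31.4% lower under ossro1c, and 29.9% and 29.6% under osdreb2b. The 1 of 3 higher under ossro1c was near its share, and the mesophyll counts below have the same background. The 5 leaf mesophyll markers summed to 7718 to 8060.0 CPM in WT, 5391 to 7903 CPM under ossro1c and 21220.0 to 22780.0 CPM under osdreb2b, most of it from RBCS (LOC_Os12g17600). Under ossro1c 3 of the 5 were lower, with log2 changes of -2.47 for LOC_Os09g17740, -1.36 for LOC_Os03g39610 and -0.84 for LOC_Os07g37550, all listed as antenna protein loci. RBCS (log2 -0.21, adjusted p = 0.13) and CAB2R (LOC_Os01g41710; log2 0.02, adjusted p = 0.93) were not called. Under osdreb2b all 5 were higher, by 0.89 for RBCS to 4.63 for CAB2R.

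The 3 root markers summed to 2.18 to 2.82 CPM in WT, 15.8 to 19.8 CPM under ossro1c and 8.60 to 11.8 CPM under osdreb2b, nearly all from Lsi1 (LOC_Os02g51110), a silicon channel gene, which rose by 2.85 and 2.08 on the log2 scale. Lsi2 was at 0 throughout and NRT2.1 at 0 in WT. The 4 dividing cell markers summed to 8.08 to 11.0 CPM in WT, 8.16 to 10.9 CPM under ossro1c and 25.4 to 30.5 CPM under osdreb2b. The higher sum came from CDKB2;1 (LOC_Os08g40170), a cyclin-dependent kinase gene, alone, which rose by 1.86 under osdreb2b (adjusted p = 7.2e-08). The cyclin genes were not called there, CYCB1;1 (LOC_Os01g59120) at log2 -0.60 (adjusted p = 0.094) and CYCB2;2 (LOC_Os06g51110) at log2 -1.08 (adjusted p = 0.40).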

How the data were processed

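The deposited table holds raw counts per locus for 9 libraries, not normalised, per the file headers and the values. RNA was taken with TRIzol and made into libraries with a SMARTER kit for mRNA, per the labels' protocols. The submitters' processing notes name DESeq2, StringTie 2.1.4, HISAT2 2.2.1 and fastp 0.23.4, with no role given. Genome build, annotation and strand setting are not stated in the sources used here.

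Loci were kept by filterByExpr with group as its argument (26112 of 55801, holding at least 99.96% of each library's counts), scaled by TMM and fitted to all 9 libraries by genotype with robust quasi-likelihood (edgeR 4.0.16 under R 4.3.3). A standard error (SE) is the size of the log2 change over the root of its F value, and intervals at 95% use the fit's degrees of freedom. The fit was tested on simulated data with the same number of loci. It recovered 34 of 50 loci changed by a log2 of 1, and 30 of 50 changed by -1. At 2 and -2 it recovered 42 and 36 of 50, and 9 unchanged loci were called. At each of these sizes 50 loci were changed, whereas in the libraries 29.4% of tested loci were called higher and 31.4% lower under ossro1c. How often a change in a PAL locus would be called was not tested. A locus that was not called may still have changed. DESeq2 1.42.0, other scalings and filters, a replicate block and leaving out each library were tried.

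The members and lists were chosen with earlier results of these data known. Named genes are all 9 members and, per list, a selection of loci that did not strictly follow the adjusted p. In the lignin list under ossro1c, LOC_Os08g38910 (log2 1.11) and LOC_Os05g41440 (log2 -1.0) had smaller adjusted p than HCT1. They are not described above, so the named loci do not stand for their list. A locus carries a gene name only if that name occurs in the reference table within 1.5 Mb of the position implied by its identifier (27 of 67 listed names); other loci are given as listed. No sequence of the members was used here.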

Additional observations from a re-analysis of the deposited data

How the results depend on the processing

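The 18 alternatives were other scalings (DESeq2 size factors, upper quartile, raw totals), other filters, DESeq2's Wald test, fits on 6 libraries, a replicate block, no robust step, and leaving out each library. All counts of called genes, PAL loci and pathway loci stayed within 1.5 times their value. Of 432 member changes, 408 kept direction and side of the threshold, 15 lost the call and 4 gained it. The other 5 turned sign, all without a call for osdreb2b against WT: LOC_Os02g41680 to 0.108 (upper quartile), 0.134 (raw totals) and, with 1 library left out, between -0.0418 and 0.033 (positive without WT replicate 3 or osdreb2b replicate 2), and LOC_Os02g41650 to 0.00974 (raw totals).

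Called PAL loci numbered 7 to 8 higher under ossro1c; 3 higher and 2 to 4 lower under osdreb2b; and 1 higher and 6 to 7 lower between the mutant labels. With 1 library left out, called genes ranged from 14659 to 16452, 14271 to 16962 and 10713 to 13097 in these comparisons. Raw totals moved the median change of all genes to 0.32, 0.17 and -0.20, and called genes from 48.4% to 63.2% higher for ossro1c against WT and from 49.2% to 35.3% higher between the mutant labels. Relative to that median the change of LOC_Os02g41650 under ossro1c stayed at 1.0.

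Same-numbered replicates did not deviate together (correlations -0.0091 to 0.02 over 9 pairs; 7 of 18 comparisons were best with the own number). With the replicate block, LOC_Os02g41630 between the mutant labels did not pass (log2 -0.19, adjusted p = 0.059), and no other member's call changed. Among the members LOC_Os11g48110 alone had too few counts to be tested, and the reason for its lack of counts was not tested.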
